A study of Mus musculus with 8 samples.

Results

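The genes described here are 9 genes known for the neural ectoderm, namely the transcription factors Sox1, Sox3, Pax6, Zic1, Zic2, Zic5, Hes5 and Olig3 and the intermediate filament gene Nes, which encodes Nestin. They were listed by name and matched to the rows of the expression table by an identical gene symbol, whatever their values. Of the 9 genes, 8 had a row among the 18094 rows of the table, and 7 of these passed the filter on low values (10 normalized counts or more on average over all libraries), among 15767 genes tested. Hes5 had a row but stayed under the filter, and Olig3 was not analysed here. RNA was sequenced from 4 groups of 2 libraries each. WT mESCs on day 0 were cells of the mouse embryonic stem cell line E14Tg2A, kept on mouse fibroblasts made inactive with mitomycin C, in serum with LIF and the 2i inhibitors CHIR99021 and PD0325901. CTCF-K20R mESCs on day 0 were grown in the same way and carry a CRISPR/Cas9 edit of CTCF, brought in with a donor vector, that turns lysine 20 into arginine. WT EBs and CTCF-K20R EBs on day 4 are the embryoid bodies that these cells form in hanging drops, in serum without LIF. Edited colonies were isolated by drug selection, and the sources used here do not say how many clones were sequenced, so the mutation and the history of a clone cannot be told apart.

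The neural ectoderm is the part of the ectoderm that gives rise to the brain and spinal cord, and in culture it forms from pluripotent cells when signals for mesoderm and endoderm are low. Sox1 and Sox3 belong with Sox2 to the SoxB1 factors, which hold cells in a neural progenitor state, and Sox1 is among the most specific early markers of that state. Pax6 specifies forebrain, eye and part of the spinal cord, the Zic zinc-finger factors act in neural plate and neural crest formation, Hes5 is a repressor switched on by Notch signaling, and Nestin is abundant in neural progenitors without being limited to them. Several of these genes, Sox3, Zic2, Zic5 and Nes among them, are also transcribed in pluripotent cells or in the epiblast, the tissue from which all germ layers arise. These data come from whole cultures, in which fewer cells of a type and less RNA per cell cannot be told apart.

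Normalized counts added up to 19412659 in the smallest library and to 21311513 in the largest, and 3 reads, taken as the limit of detection, corresponded to about 2.43 to 3.43 normalized counts. The limit accounts for counting error alone, as PCR copies of a molecule may have been counted as separate reads. Both WT pairs differed by less than sampling noise, with a squared difference of 0.314 times the expected value in mESCs and 0.278 times in EBs, and each pair was averaged and counted as 1 sample. The CTCF-K20R pairs differed by 3.999 and 4.363 times the expected value, so the error of every test below comes from the CTCF-K20R libraries. With WT pairs this close, groups can fail to overlap at small differences, as Zic2 did in EBs at 1.06-fold. The share of all genes without overlap was not counted. The study describes the 2 libraries of a group as biological replicates, but neither it nor the labels say whether they came from separate cultures. The p-values then measure only the spread between these samples, which may be technical. As a check of the cell type, the 12 pluripotency genes listed summed to between 114106 and 119589 normalized counts in the mESC libraries and to between 15948 and 30431 in the EB libraries.

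On day 4, 3 of the 7 tested genes, Sox1, Sox3 and Pax6, were upregulated in CTCF-K20R EBs, and 0 were downregulated, nor lower at an unadjusted p under 0.05 with limma. A gene was called a DEG where the log2 fold change was above 1 or below -1 and the adjusted p was under 0.05 (limma, Benjamini-Hochberg over all genes tested), and by this rule 6.89% of all genes tested were upregulated and 8.65% were downregulated on day 4. Their median log2 fold change, over all 7 tested, came to 0.51, beside 0.01 over all genes. On day 0, Sox3 was downregulated in CTCF-K20R mESCs and no other of the 7 genes was called, where 1.19% of all genes tested were upregulated and 2.60% downregulated. The day 4 and day 0 comparisons share no library, but the tests of the day change and of the difference between the days use the same CTCF-K20R libraries again and are not independent of them. The plot of the values by library shows all 8 genes with a row.

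**Figure D1:**
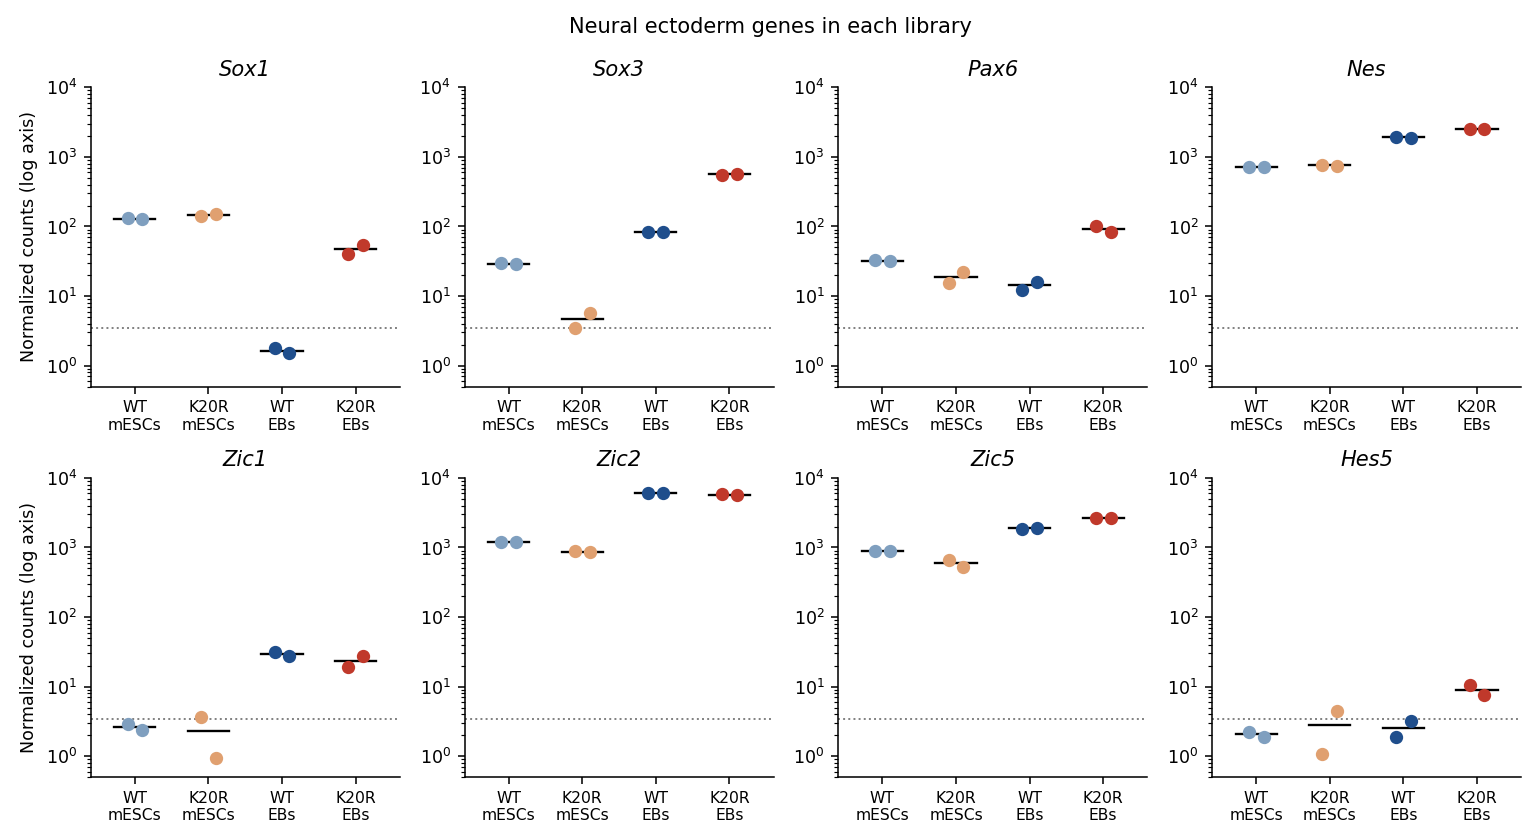
Normalized counts (log axis) of each gene with a row, by group, with 1 point per library, a bar at the group mean and a dotted line at the highest limit of detection (3.43 normalized counts). In WT EBs both points of Sox1 lie under the line, at 1.78 and 1.50, while those of CTCF-K20R EBs lie at 40.1 and 53.8.

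Among the SoxB1 factors, Sox1 (ENSMUSG00000096014, mm10 chr8:12395295-12400126, plus strand) showed the widest separation of the EB groups. It stood at 131.4 and 128.2 normalized counts in WT mESCs, at 142.5 and 150.0 in CTCF-K20R mESCs, at 1.78 and 1.50 in WT EBs and at 40.1 and 53.8 in CTCF-K20R EBs. The gene was thus well detected in mESCs of both genotypes and under the limit of detection in WT EBs, and the EB groups did not overlap. Its level in CTCF-K20R EBs was at least 16.3-fold higher than in WT EBs, with a fitted log2 fold change of 4.17 (SE 0.324, adjusted p = 5.05e-04, limma on 6 samples). Because WT EBs were under the limit, the fitted value moved with the pseudocount, to 4.74 with 0.1 and to 2.95 with 5. On day 0 the genotypes differed by 0.17 on the log2 scale (95% interval -0.64 to 0.98, adjusted p = 0.760). In CTCF-K20R cells Sox1 was still 3.12-fold lower in EBs than in mESCs (log2 fold change -1.63, adjusted p = 0.00343), and in WT cells it was at least 45.1-fold lower, a change between single samples with no test. CTCF-K20R EBs thus lay between WT EBs and the mESCs, and not above the mESCs. The call on day 4 held in every alternative setting tried.

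Reads of Sox1 share their locus with another gene. The noncoding gene Gm5607, which the annotation names Sox1ot, spans Sox1 on the same strand (chr8:12385771-12436768), so reads within the shared stretch could have been given to either. Gm5607 stood at 97.1 and 96.2 normalized counts in WT mESCs, at 99.4 and 108.7 in CTCF-K20R mESCs, at 46.3 and 43.2 in WT EBs and at 52.6 and 55.7 in CTCF-K20R EBs. It was not called on day 4 (log2 fold change 0.27, adjusted p = 0.439), and its level in WT EBs stayed well above the limit of detection where that of Sox1 did not.

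Sox3 (ENSMUSG00000045179, chrX:60891366-60893430, minus strand) differed in opposite directions on the 2 days. WT mESCs held 29.5 and 28.6 normalized counts and CTCF-K20R mESCs 3.52 and 5.70, close to the limit of detection. WT EBs held 83.0 and 82.5 normalized counts and CTCF-K20R EBs 552.5 and 574.4. The genotypes overlapped on neither day, with CTCF-K20R lowest of the 4 groups in mESCs and highest in EBs. On day 0 Sox3 was 6.30-fold lower in CTCF-K20R mESCs (log2 fold change -2.45, SE 0.348, adjusted p = 0.0118). On day 4 it was 6.81-fold higher in CTCF-K20R EBs (log2 fold change 2.75, SE 0.348, adjusted p = 0.00260). From day 0 to day 4 Sox3 rose 122.3-fold in CTCF-K20R cells (log2 fold change 6.68, adjusted p = 2.69e-05) and was 2.85-fold higher in WT EBs than in WT mESCs. The number of libraries limits both genotype calls, since without the first or the second CTCF-K20R EB library the adjusted p was 0.0508 or 0.0511 on day 4 and 0.0972 or 0.0973 on day 0. The day 0 call was also lost when only the mESC libraries were fitted (adjusted p = 0.0857) and without the mean-variance trend (adjusted p = 0.0612).

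Pax6 (ENSMUSG00000027168, chr2:105668900-105697364, plus strand), the paired-box factor of eye and forebrain, was highest in CTCF-K20R EBs. Per kilobase of exon it was low there too, with a mean of 7.88 normalized counts beside 9.71 for Sox1 and 272.9 for Sox3. Pax6 values were 32.8 and 31.9 normalized counts in WT mESCs, 15.5 and 22.3 in CTCF-K20R mESCs, 12.4 and 16.0 in WT EBs and 100.2 and 84.2 in CTCF-K20R EBs. CTCF-K20R EBs stood above every other library, and the remaining libraries lay between 12.4 and 32.8. The day 4 difference was 6.49-fold (log2 fold change 2.61, SE 0.385, adjusted p = 0.00432), and on day 0 the log2 fold change was -0.77 (95% interval -1.73 to 0.19, adjusted p = 0.241). In CTCF-K20R cells Pax6 rose from day 0 to day 4 (log2 fold change 2.24, adjusted p = 0.00196), and in WT cells the change was -1.13 on the log2 scale. Without the first CTCF-K20R EB library the day 4 difference was 2.49 and its adjusted p 0.0533. Pax6os1, an antisense gene, overlaps Pax6 on the opposite strand, and without a stated strand setting in the counting their reads cannot be told apart.

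Nes (ENSMUSG00000004891, chr3:87971078-87980451, plus strand), the filament gene used as a general progenitor marker, was abundant everywhere. WT mESCs held 716.4 and 709.6 normalized counts and CTCF-K20R mESCs 773.6 and 743.7. WT EBs held 1921.1 and 1883.6 normalized counts and CTCF-K20R EBs 2504.4 and 2538.5. The EB groups did not overlap, but the difference was small, at 0.41 on the log2 scale (95% interval 0.25 to 0.57, adjusted p = 0.00532), under the minimum fold change of a DEG. On day 0 it was 0.09 (95% interval -0.07 to 0.25, adjusted p = 0.397). From day 0 to day 4 Nes rose in CTCF-K20R cells (log2 fold change 1.73, adjusted p = 8.88e-06), and the change in WT cells was 1.41. Its nearest tested neighbour, the brevican gene Bcan, lies 7080 bases away and was not called on day 4 (log2 fold change 0.66, adjusted p = 0.487). On the other side Crabp2, a retinoic acid binding protein gene, lies 17702 bases away and was upregulated, with a log2 fold change of 1.08 (adjusted p = 0.00982).

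The 3 Zic genes did not share the day 4 pattern of Sox1, Sox3 and Pax6, and none of them was called on either day between the genotypes. Zic2 (ENSMUSG00000061524, chr14:122475435-122479852, plus strand), whose loss in mice and humans disturbs forebrain division, was the most abundant of the 8 genes per kilobase of exon. It held 1180.4 and 1188.7 normalized counts in WT mESCs, 880.1 and 847.2 in CTCF-K20R mESCs, 6050.2 and 6048.2 in WT EBs and 5794.8 and 5598.0 in CTCF-K20R EBs. On day 4 the log2 fold change was -0.09 with a 95% interval of -0.22 to 0.05 (adjusted p = 0.258), an interval that leaves out a 2-fold difference in either direction. On day 0 Zic2 was lower in CTCF-K20R mESCs by a small margin, at -0.46 (adjusted p = 0.00699). The rise from day 0 to day 4 was 2.72 in CTCF-K20R cells (adjusted p = 2.29e-06), beside a change of 2.35 in WT cells.

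Zic5 (ENSMUSG00000041703, chr14:122456795-122465677, minus strand) lies head to head with Zic2, with the noncoding gene 2610035F20Rik between them. It held 882.6 and 898.1 normalized counts in WT mESCs, 660.0 and 530.4 in CTCF-K20R mESCs, 1873.0 and 1892.3 in WT EBs and 2660.8 and 2684.5 in CTCF-K20R EBs. Like Sox3, it was lower in CTCF-K20R than in WT on day 0 and higher on day 4, but by less, with log2 fold changes of -0.59 (adjusted p = 0.0386) and 0.51 (adjusted p = 0.0291), both under the minimum fold change. The log2 fold change from day 0 to day 4 was 2.17 in CTCF-K20R cells (adjusted p = 4.24e-05) and 1.08 in WT cells. The noncoding 2610035F20Rik was lower in CTCF-K20R mESCs (log2 fold change -0.99, adjusted p = 0.0361), and its day 4 log2 fold change was -0.03 (adjusted p = 0.919).

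Zic1 (ENSMUSG00000032368, chr9:91358058-91365810, minus strand), which acts in the dorsal neural tube and cerebellum, was near the limit of detection in mESCs. It held 2.90 and 2.42 normalized counts in WT mESCs, 3.72 and 0.945 in CTCF-K20R mESCs, 32.0 and 27.2 in WT EBs and 19.4 and 27.2 in CTCF-K20R EBs. Both genotypes thus gained Zic1 in EBs, and the EB groups touched at 27.2. The day 4 log2 fold change was -0.35 with a wide 95% interval of -2.09 to 1.39 (adjusted p = 0.719), which spans changes of over 2-fold in either direction. From day 0 to day 4 it rose at least 7.04-fold in CTCF-K20R cells (log2 fold change 2.98, adjusted p = 0.00633), and was at least 8.69-fold higher in WT EBs than in WT mESCs. With means of 2.66 in WT mESCs and 2.33 in CTCF-K20R mESCs, Zic1 passed the filter on low values through the EB libraries. The filter thus favoured a rise, and the adjusted p is no independent evidence of one. The rise in CTCF-K20R cells had an adjusted p of 0.0529 without the first and of 0.0694 without the second CTCF-K20R EB library. Zic4 overlaps Zic1 on the opposite strand, which leaves the assignment of reads in the shared stretch uncertain.

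**Figure D2:**
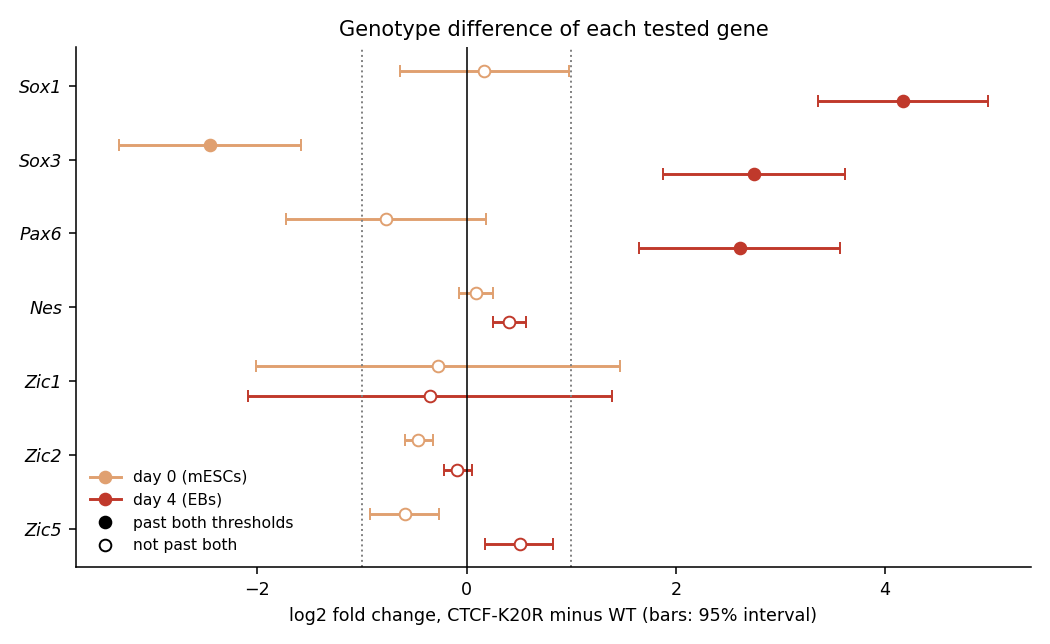
The log2 fold change of CTCF-K20R against WT for the 7 genes tested, on day 0 and on day 4, with 95% intervals, filled where both thresholds were passed, and dotted lines at -1 and 1. Sox1, Sox3 and Pax6 lie at 4.17, 2.75 and 2.61 on day 4, and Sox3 lies at -2.45 on day 0.

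Hes5 (ENSMUSG00000048001, chr4:154960923-154962371, plus strand), a target of Notch in neural progenitors, was close to the limit of detection in 3 of the 4 groups. It held 2.26 and 1.89 normalized counts in WT mESCs, 1.09 and 4.45 in CTCF-K20R mESCs, 1.88 and 3.17 in WT EBs and 10.6 and 7.54 in CTCF-K20R EBs. The libraries of CTCF-K20R EBs were the highest, with a mean at least 3.15-fold above that of WT EBs. With the filter on low values removed, the log2 fold change was 1.50 (SE 0.706, adjusted p = 0.190), which is no call. Gm20421 overlaps Hes5 on the opposite strand, which leaves the assignment of reads in the shared stretch uncertain.

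Of the 9 genes, 7 had entries in the RefSeq promoter table (GRCm38.p6), which gave 8 promoters of 250 bases before the start of transcription. The windows were searched on both strands for GTGGGAA, a form of the site of the Notch effector RBPJ, for ACAATG, a form of the site of SOX factors, and for AGGGGGCGC, one form of part of the CTCF site, which 5.42%, 10.7% and 1.11% of all 32851 promoters of this length held. Pax6, which was upregulated in CTCF-K20R EBs, and Hes5, with 4 matches, are shown, with matches in capitals and the rest in lower case. The Pax6 window is chr2:105668646-105668895 on the plus strand and the Hes5 window chr4:154960673-154960922 on the plus strand.
Pax6: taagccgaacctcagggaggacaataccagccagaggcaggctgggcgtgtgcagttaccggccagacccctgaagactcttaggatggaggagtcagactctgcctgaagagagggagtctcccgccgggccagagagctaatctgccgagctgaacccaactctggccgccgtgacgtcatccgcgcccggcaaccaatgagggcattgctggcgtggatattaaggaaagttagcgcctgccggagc
Hes5: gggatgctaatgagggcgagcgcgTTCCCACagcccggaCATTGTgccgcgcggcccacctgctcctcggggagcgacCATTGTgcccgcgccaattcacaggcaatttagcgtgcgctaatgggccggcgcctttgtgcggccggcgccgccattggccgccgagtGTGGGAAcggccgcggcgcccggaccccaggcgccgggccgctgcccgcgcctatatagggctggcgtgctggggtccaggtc
The Hes5 window holds GTGGGAA once on each strand, beginning 226 and 83 bases before the start, and ACAATG as its reverse complement at 211 and 172 bases before the start. The letters AGGGGGCGC were found in the window of Sox1 alone, as the reverse complement 102 bases before the RefSeq start, a position that GENCODE places inside the gene, and the remaining windows held no match. A match is no evidence of binding, and no match says only that these letters are not in the window. The Hes5 window has a GC content of 71.6% and the Pax6 window shown one of 60.8%, beside a median of 52.4% over all promoters. A second Pax6 promoter in the table, chr2:105682213-105682462 on the plus strand within the gene, has a GC content of 47.6%.

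Over time, all 7 tested genes changed in CTCF-K20R cells. From day 0 to day 4, 6 rose (Sox3, Zic1, Zic2, Pax6, Zic5 and Nes) and Sox1 fell, where 14.5% of all genes tested rose and 11.6% fell. Zic1 passed the filter on low values through the EB libraries, so its rise in either genotype was favoured by the filter. In WT cells, with a single sample on each day and no test, 5 genes were past the minimum fold upward (Zic1, Zic2, Sox3, Nes and Zic5) and 2 downward (Sox1 and Pax6), beside 18.9% and 16.3% of all genes tested. Pax6 was thus the gene whose direction over time differed between the genotypes, and its WT value of -1.13 came to -0.96 with a pseudocount of 5 and to -0.97 without the first WT EB library.

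The test of whether the genotype difference itself differed between the days called 4 of the 7 genes, all toward a higher value on day 4, where 6.84% of all genes tested were called in that direction and 6.04% in the other. The difference between the day 4 and day 0 log2 fold changes was 5.20 for Sox3 (SE 0.492, adjusted p = 0.00181), 4.00 for Sox1 (SE 0.458, adjusted p = 0.00328), 3.38 for Pax6 (SE 0.544, adjusted p = 0.00972) and 1.09 for Zic5 (SE 0.185, adjusted p = 0.0114). For Sox3 and Zic5 a lower value on day 0 added to it. So did the day 0 log2 fold change of Pax6, at -0.77, though its 95% interval of -1.73 to 0.19 spans 0. It was 0.37 for Zic2 (adjusted p = 0.0218) and 0.32 for Nes (adjusted p = 0.0525), under the minimum fold change, and -0.08 for Zic1 (95% interval -2.54 to 2.38, adjusted p = 0.962). Without the first CTCF-K20R EB library the calls of Pax6 and Zic5 were lost (adjusted p = 0.0736 and 0.107), and without the second those of Sox3, Pax6 and Zic5 (adjusted p = 0.0509, 0.0683 and 0.110). Zic5 was also lost without the second CTCF-K20R mESC library, where its difference was 0.94, and without the mean-variance trend, where its adjusted p was 0.0798.

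Levels of different genes were compared per kilobase of annotated exon. Within the SoxB1 family, Sox2, which is shared between pluripotent and neural cells, made up 99.4% to 99.5% of the family total in the mESC libraries. In EBs its share was 87.9% and 88.2% in WT and 85.1% and 84.3% in CTCF-K20R, and Sox3 made up most of the rest, at 12.0% and 11.7% in WT and 14.5% and 15.1% in CTCF-K20R. The family total was 335.9 and 340.8 normalized counts per kilobase in WT EBs and 1851.0 and 1841.1 in CTCF-K20R EBs. Sox1 stayed under 1% of the family in all libraries, and its share was 0.109% and 0.0912% in WT EBs, where the gene was under the limit of detection, and 0.448% and 0.605% in CTCF-K20R EBs.

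Among Zic1, Zic2 and Zic5, Zic2 was the most abundant per kilobase in every library, with 69.2% to 73.0% of their summed level in mESCs. Its share in EBs was 84.4% and 84.3% in WT and 78.6% and 77.8% in CTCF-K20R, and that of Zic5 was 15.4% and 15.5% in WT and 21.3% and 22.0% in CTCF-K20R. The sum of the 3 genes was close between the EB genotypes, at 2489.5 and 2491.9 normalized counts per kilobase in WT and 2559.8 and 2497.6 in CTCF-K20R. Zic1 stayed under 1% in every library, with 0.225% the highest.

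**Figure D3:**
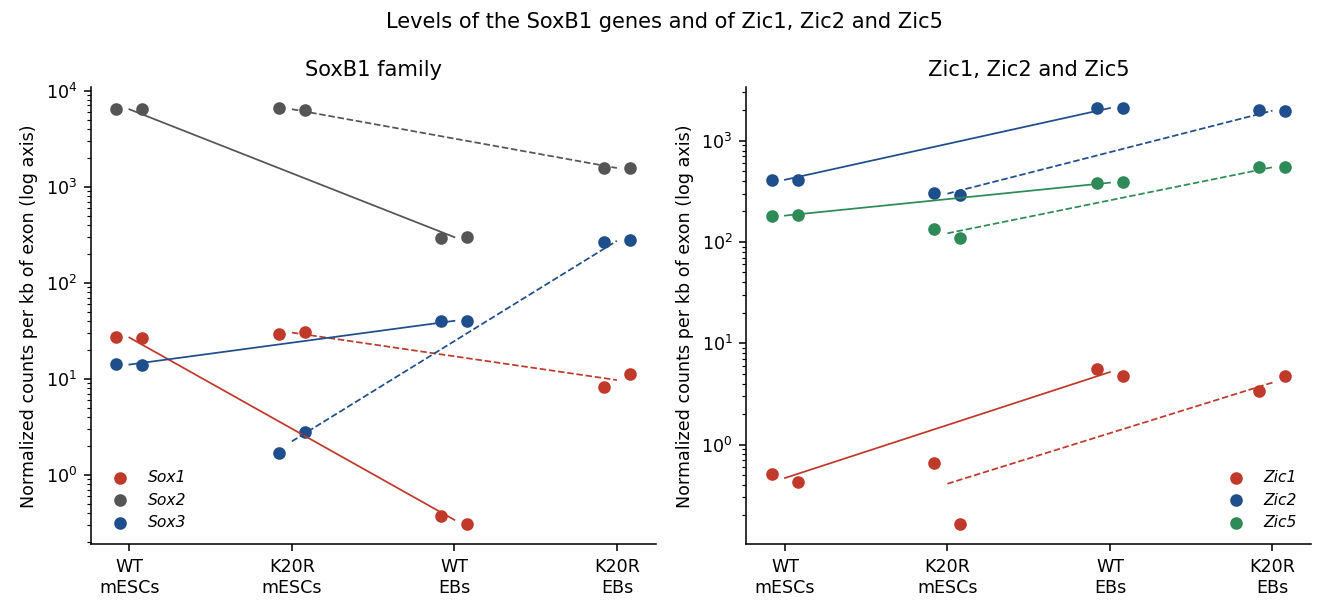
Normalized counts per kilobase of exon (log axis) of the SoxB1 genes and of Zic1, Zic2 and Zic5 in each library, with lines from mESCs to EBs through the group means (WT solid, CTCF-K20R dashed). Sox3 rises more steeply in CTCF-K20R than in WT, and the Zic2 points of both EB groups lie between 1943.8 and 2100.8.

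The other neural genes did not rise with Sox1, Sox3 and Pax6 as a group. In a list of 49 other genes of neural progenitors, regions of the neural plate and early neurons, 33 were tested. On day 4, 3 were upregulated and 11 downregulated, with 19 not called and a median log2 fold change of -0.71. Over all genes tested, 6.89% were upregulated and 8.65% downregulated, shares that also apply to the day 4 counts of the lists below. Upregulated were Pou3f1, an early factor of neural commitment (253.1 and 258.1 normalized counts in WT EBs, 3033.0 and 2921.2 in CTCF-K20R EBs, log2 fold change 3.54, adjusted p = 8.51e-05), Sox2 (607.6 and 618.2 in WT EBs, 3240.1 and 3192.0 in CTCF-K20R EBs, log2 fold change 2.39, adjusted p = 1.58e-05) and Crabp2. Both Pou3f1 and Sox2 are also active in the epiblast. Among the downregulated genes averaging 50 normalized counts or more on day 4, the largest falls were in Cdh2, Sox21, Irx3 and Fabp7. Of the downregulated genes, Fabp7, Emx2, Six3, Nkx6-1 and Otx1 passed the filter on low values through WT EBs, where they were highest. All of these but Fabp7 were named after their values were seen. The filter favours a fall in such genes, so the counts in each direction are no test of the list.

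Cdh2 encodes N-cadherin, which neural plate and mesoderm both express, and it held 10642.8 and 10661.1 in WT EBs and 326.0 and 371.3 normalized counts in CTCF-K20R EBs (log2 fold change -4.93, adjusted p = 7.37e-05). Sox21, a SoxB2 factor, held 116.8 and 117.3 in WT EBs and 7.06 and 11.8 in CTCF-K20R EBs (log2 fold change -3.54, adjusted p = 8.55e-04). Irx3, a homeobox gene of the neural tube and of mesoderm, held 331.2 and 342.1 in WT EBs and 61.5 and 36.7 in CTCF-K20R EBs (log2 fold change -2.80, adjusted p = 0.00993). Fabp7, a fatty acid binding protein of radial glia, held 97.0 and 99.0 in WT EBs and 20.6 and 12.1 in CTCF-K20R EBs (log2 fold change -2.56, adjusted p = 0.0216). None of these 4 genes overlapped between the EB groups, but neither did Zic2, at a 1.06-fold difference. On day 0, Crabp2 was the single gene of the list that was called, and it was downregulated (log2 fold change -1.74, adjusted p = 0.00628). Over all genes tested, 2.60% were downregulated on day 0.

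Among genes listed for the Notch pathway, which acts upstream of Hes5, more were downregulated than upregulated in CTCF-K20R EBs. Signaling itself was not measured. Of 13 tested genes of 15 listed, 1 was upregulated and 7 were downregulated on day 4, and 5 were not called. The receptor genes Notch1, Notch2 and Notch3 and the effector gene Rbpj, named after their values were seen, were not called. Their log2 fold changes were -0.80, 0.04, 0.88 and 0.11. The median log2 fold change was -1.02, and over all genes tested 6.89% were upregulated and 8.65% downregulated. Hes1 is counted among the downregulated genes of this list and of the other neural genes. The ligand genes Dll1 and Dll3 were downregulated, with log2 fold changes of -3.60 (adjusted p = 0.00226) and -3.44 (adjusted p = 1.19e-04). Normalized counts of Dll1 were 1211.6 and 1237.5 in WT EBs and 91.5 and 109.0 in CTCF-K20R EBs, and Dll3 2502.5 and 2509.6 in WT EBs and 224.2 and 235.3 in CTCF-K20R EBs. Both ligands are also transcribed in presomitic mesoderm. The upregulated gene was the ligand gene Jag2, named as the single exception after its value was seen, with a log2 fold change of 1.60 (adjusted p = 3.43e-04).

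Genes of other cell types also differed between the EB groups on day 4, and mesoderm and endoderm genes mostly went in the opposite direction to Sox1, Sox3 and Pax6. Of 12 mesoderm genes, 11 were downregulated and 0 upregulated, with a median log2 fold change of -4.99, led by Msgn1 and Mesp1 (at least 256.9-fold and 493.3-fold lower, adjusted p = 2.34e-04 and 1.97e-04), and their summed normalized counts were 44970.3 and 45120.2 in WT EBs and 2688.3 and 2524.8 in CTCF-K20R EBs. Of 8 tested endoderm genes, 6 were downregulated and 1 upregulated, with a median of -5.53, led by Cer1 and Sox17 (log2 fold changes -9.72 and -7.30, adjusted p = 2.31e-04 and 5.23e-04). Msgn1, Mesp1, Hand1, Foxf1, Cer1, Sox17, Gata6 and Foxa1 passed the filter on low values through WT EBs, which favours a fall in such genes. Hand1, Foxf1, Gata6 and Foxa1 were named after their values were seen. The counts and medians of the mesoderm and endoderm lists are thus no test of these lists. Of 12 tested genes of neural crest and surface ectoderm, 2 were upregulated and 5 downregulated, with a median of -0.94, and the largest changes were in Msx2 and Msx1 (log2 fold changes -5.23 and -3.61, adjusted p = 6.17e-04 and 0.0243). WT EBs thus held far more mesoderm RNA than CTCF-K20R EBs, and the part of this in the higher levels of Sox1, Sox3 and Pax6 was not tested.

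Markers of less differentiated cells moved in both directions on day 4. Of 11 tested pluripotency genes, 6 were upregulated and 2 downregulated, with a median log2 fold change of 1.17, and Esrrb and Klf2 led (log2 fold changes 2.65 and 2.53, adjusted p = 2.53e-05 and 9.10e-05). Summed over 12 genes, normalized counts were 15947.7 and 16098.7 in WT EBs and 30430.8 and 29862.9 in CTCF-K20R EBs. Most of this sum was Pou5f1, which was not called, with means of 12645.8 in WT EBs and 21765.1 in CTCF-K20R EBs. Of 9 epiblast genes, 2 were upregulated and 1 downregulated, with a median of 0.78, and the largest changes were in Utf1 and Grb10 (log2 fold changes 3.93 and -2.50, adjusted p = 7.67e-06 and 0.0103). The epiblast sum was 31100.1 and 30952.5 in WT EBs and 61559.2 and 63967.0 in CTCF-K20R EBs. Dnmt3b made up most of it in CTCF-K20R EBs, with means of 14621.9 in WT EBs and 37468.1 in CTCF-K20R EBs. Fgf5 was not called (log2 fold change -0.21, means of 3758.8 in WT EBs and 3256.9 in CTCF-K20R EBs). Pou5f1, Dnmt3b and Fgf5 were named after their values were seen. Sox1, Zic2, Zic5 and Nes were well above the limit of detection in mESCs of both genotypes, and the part of pluripotent or epiblast cells in their EB levels, and in those of Sox3 and Pax6, was not tested.

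Fibroblast genes were followed because mESCs were grown on fibroblasts. Their summed level over 11 genes ran from 50096.1 to 56628.5 normalized counts in the mESC libraries, was 54908.3 and 54789.9 in WT EBs and 6087.2 and 6957.1 in CTCF-K20R EBs, and most of it was Fn1. The sum thus mainly follows Fn1 and was not tested as a measure of fibroblasts. Of 8 tested genes, 2 were upregulated and 3 downregulated on day 4, with a median log2 fold change of -1.09, and the 2 largest changes among abundant genes were in Fn1 and Vim (log2 fold changes -3.60 and -2.39, adjusted p = 1.02e-05 and 5.02e-04). Dcn, Postn and Twist2 stood at 0 in all 4 mESC libraries, while Thy1, Fbln1, Fn1 and Vim were above the limit of detection in each of them, as were the collagen genes Col1a1, at 16.0 to 34.3 normalized counts, and Col1a2, at 12.2 to 28.1. These genes were named after their values were seen. The part of fibroblast RNA in the mESC levels was not tested.

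**Figure D4:**
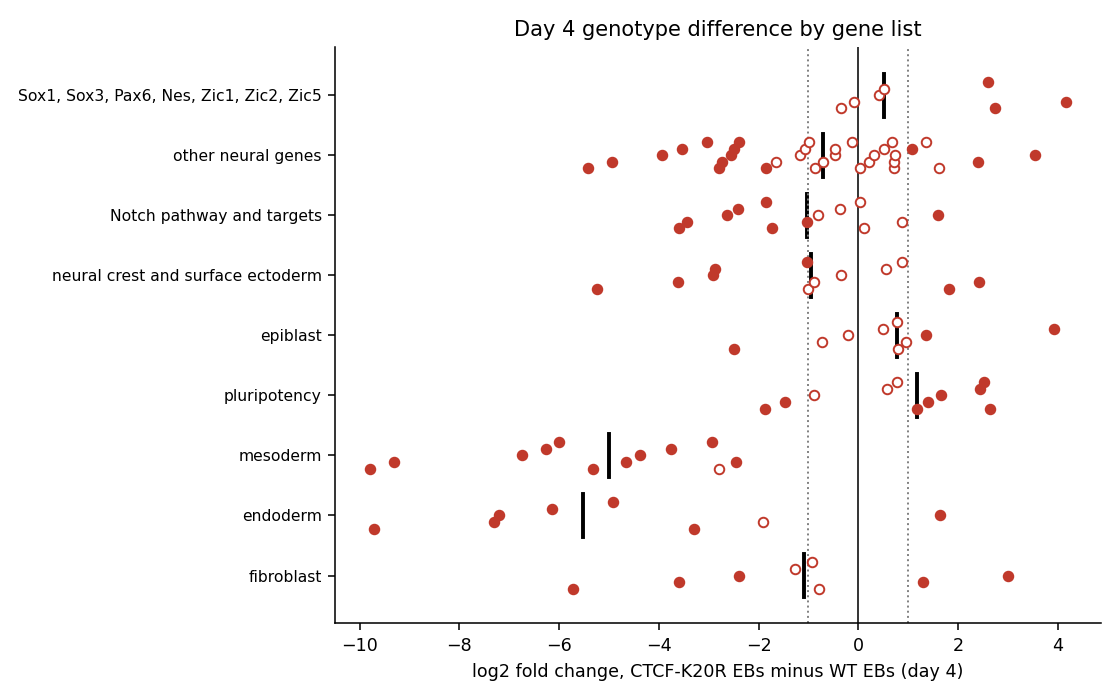
The day 4 log2 fold change of each tested gene, by gene list, filled where it was a DEG, with a black bar at the median of the list and dotted lines at -1 and 1. The bar of the 7 genes described here lies at 0.51, those of other neural genes and Notch genes at -0.71 and -1.02, and those of mesoderm and endoderm at -4.99 and -5.53.

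Neighbouring genes were read for the same change. The median day 4 log2 fold change of the tested genes within 1 Mb of each gene was 0.07 around Sox1 (20 genes), 0.20 around Pax6 (13 genes), 0.13 around Nes (50 genes), -0.01 around Zic2 and -0.06 around Zic5 (14 genes each), and -0.28 around Zic1 (6 genes). Near Sox3 only 2 genes were tested, with a median of 0.56. The nearest tested neighbours of Sox1, Arhgef7 and Tubgcp3, had day 4 log2 fold changes of 0.08 each (adjusted p = 0.492 and 0.456), and those of Pax6, Rcn1 and Elp4, of -0.59 each (adjusted p = 5.51e-04 and 0.0271).

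Genes whose pattern over the 8 libraries was most like that of each gene were found by the root mean square difference of log2 values, each centred on its own mean, among genes averaging 100 normalized counts or more. Nearest to Sox1 were Nphs1 (0.34) and Gdf3 (0.40), nearest to Pax6 were Nav2 (0.26) and Ramp3 (0.29), and nearest to Sox3 were Arl4c (0.57) and Kcnj3 (0.66). Nphs1 held 17.9 and 18.9 normalized counts in WT EBs, 507.4 and 389.3 in CTCF-K20R EBs and between 1222.4 and 1640.9 in mESCs, the same order of groups as Sox1 apart from the mESC genotypes. The nearest partners of Nes (Stap2 and Gm3373, both 0.08), Zic2 (Arnt2 0.10 and Cd209c 0.11) and Zic5 (Tmem254c 0.11 and Mirg 0.12) lay closer than those of Pax6, and those of Zic1 were Aif1l (0.17) and Cacna2d1 (0.28). The 8 libraries are few and fall into 4 groups, so the likeness is mainly of 4 group levels.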

How the data were processed

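RNA-seq of WT and CTCF-K20R mESCs (day 0) and EBs (day 4) was used, with 2 libraries per group. The authors trimmed reads with Trim_Galore 0.4.4, quantified them with salmon 0.9.1 on mm10, summed transcripts to genes with tximport 1.20.0 and scaled them with DESeq2 1.10.1. These normalized counts were deposited as a signal for each gene in each library and are not whole reads, so no count model was run. The annotation release and strand setting are not given in the sources used here. A length factor of each gene and library can move low values.

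Genes averaging 10 or more were tested as log2(value + 1), so that fold changes of low genes are understated, with limma 3.58.1 in R 4.3.3 (a mean for each of 4 groups, eBayes with trend, 2 residual and 3.51 prior degrees of freedom, Benjamini-Hochberg over 15767 genes). DEGs had a log2 fold change past 1 in size and adjusted p under 0.05. WT pairs were averaged (6 samples). Fits were tested on simulated data. Where a group lay at or under 3 reads, the fold was computed against that limit and is a lower bound. Positions came from GENCODE vM21 (GRCm38), promoters from RefSeq. Python 3.11.15 with pandas 2.3.3, numpy 2.4.6 and matplotlib 3.10.9 summarised and drew the values.

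The genes described, the lists (other neural genes, Notch pathway and targets, neural crest and surface ectoderm, epiblast, pluripotency, mesoderm, endoderm and fibroblast) and the tests were chosen with earlier results of these data known. A gene of the lists is not reported here and was left out of their counts. Besides the 9 genes, the text names from the other neural genes the called genes with the 4 largest rises and 4 largest falls on day 4 (day 4 mean of at least 50), from each other list the 2 with the largest change, the 2 nearest in pattern, and neighbouring or overlapping genes. Alternatives were other pseudocounts (0.1 and 5), filters, scaling, thresholds and designs, and each library left out.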

Additional observations from a re-analysis of the deposited data

Results flagged for a closer look

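For the following genes the genotype difference on day 4 differed from that on day 0 by the test of that difference (limma, adjusted over 15767 genes). The difference, as log2 fold change on day 4 minus that on day 0, was 4.00 for Sox1, 5.20 for Sox3, 3.38 for Pax6 and 1.09 for Zic5. Among the other neural genes named, it was 3.50 for Pou3f1, 2.39 for Sox2 and 2.81 for Crabp2, all higher on day 4, and -4.35 for Cdh2, -3.44 for Sox21 and -4.71 for Irx3, all lower on day 4. Irx3 was at 0 in both WT mESC libraries. The genotype cannot be told apart from the clone, and cell composition was not tested.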

How the results depend on the processing

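Of 594 values of single genes under other settings, 562 kept their direction and side of the thresholds, 20 lost a call, 5 gained one and 7 changed sign, all 7 of Zic1. Part of this was fixed in advance. Settings that change only a threshold reuse the main fit, so direction could not change. Leaving out a library from a group outside a comparison keeps the fold change as it was. The share that stayed is thus no measure of robustness. Called genes on day 4 numbered 5 with no minimum fold change (Nes and Zic5 added) in place of 3, and 1 to 3 with 1 library left out. On day 0, 0 were called in place of 1 with only the compared libraries, with no mean-variance trend and with adjusted p under 0.01, 3 with no minimum fold change (Zic2 and Zic5 added), and 0 to 1 with 1 library left out. The test of the difference between the days called 4, and 1 to 4 with 1 library left out. Every loss with a CTCF-K20R EB library left out goes with fewer samples in the fit. Other neural genes called on day 4 numbered 14, and 9 with a mean of at least 50, where 20 genes were tested in place of 33. A mean of at least 50 also removed Pax6 and Zic1 from testing. The Zic1 difference on day 0 (-0.27) was 0.14 with quantile normalization and ran from -0.91 to 0.37 with 1 library left out, and its difference between the days (-0.08) was 0.10 with a pseudocount of 0.1 and ran from -0.72 to 0.56 with 1 library left out. The cause was not tested. With the replicate block, 3 of the genes described here were called on day 4, 1 on day 0 and 4 between the days, as without it, and 15 of the other neural genes. Deviations of same-numbered libraries correlated between -0.031 and 0.030. Because the WT pairs differed by less than sampling noise, these values cannot show whether WT samples were paired with CTCF-K20R samples. Between the CTCF-K20R mESC and CTCF-K20R EB pairs the correlation was -0.010. Hes5 and Zic1 held few normalized counts, though no setting varied the depth, and 2 CTCF-K20R libraries per day set the error of all tests.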
